A study of Mus musculus with 13 samples.

Results

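CD8α cDCs, the spleen DC subset sorted as CD11c-high, CD8α+ and 120G8-low cells, were compared with each of 5 other mouse spleen populations: CD11b cDCs, pDCs, NK cells, B lymphocytes and CD8 T lymphocytes. The CD8α cDC arrays were chosen by their sample titles and are 2 of 13 Affymetrix Mouse 430 2.0 arrays, a chip on which each probe set reads the transcripts of a gene. There were 2 arrays of every other population except the B lymphocytes, which had 3. All cells came from untreated wild-type C57BL/6 mice. Cells of 10 to 15 mice were pooled for each DC array and of 6 to 10 for each NK array, whereas B replicates 1, 2 and 3 held cells of 3, 2 and 1 mice and a CD8 T array those of 1 mouse. An age of 6 to 8 weeks was given for CD8α cDC replicate 1 and both CD8 T arrays, and 6 weeks for B replicates 2 and 3, which are described as follicular. The duplicates of the DCs and NK cells came from 2 independent sorting experiments, and the B and CD8 T lymphocytes from others. CD8α, CD11c, CD11b and the 120G8 antigen, which is the product of Bst2, chose the DCs, so the levels of Cd8a, Itgax, Itgam and Bst2 are not findings here.

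CD8α cDCs are resident cells of lymphoid tissue that develop from bone marrow precursors and depend on the transcription factors Irf8, Batf3 and Id2. They are known for taking up dying cells, for presenting the captured antigen on MHC class I to CD8 T cells (cross-presentation), for sensing double-stranded RNA through Tlr3 and for answering the chemokine Xcl1 through its receptor Xcr1. CD11b cDCs are the other conventional subset of the spleen and are better known for presentation on MHC class II, and pDCs are the main source of type I interferon in viral infection.

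The markers of the subset bore out its label. Xcr1, the receptor for Xcl1, read 673 and 633 in the CD8α cDC arrays and at most 22.0 in the 11 others. Plpp1, a phosphatase of lipid messengers, read 1090 and 1124, against at most 31.6 elsewhere. Tlr3 read 1762 and 1727, against 137 on both CD11b cDC arrays and at most 72.8 in the rest. In all 3 genes the CD8α cDC arrays were far above every other array. The CD8α cDC replicates correlated at 0.986 (Pearson, over probe sets), within the 0.934 to 0.987 of all replicate pairs. Summed signals of markers of lymphocytes and pDCs in CD8α cDCs were 78.8 to 87.1 for 9 T cell markers (17590 to 19390 in CD8 T cells), 241 to 292 for 8 NK markers (40250 to 40350 in NK cells), 358 to 423 for 7 B cell markers (16970 to 27540 in B cells) and 602 to 757 for 9 pDC markers (28670 to 32690 in pDCs). The sum of 16 CD11b cDC markers was larger, at 1883 to 2461 (19580 to 21010 in CD11b cDCs), with Lyz2, the lysozyme of myeloid cells, at 1029 and 1045 in CD8α cDCs and 1757 and 2500 in CD11b cDCs. In CD8α cDCs, Klrk1 held most of the NK sum, at 261 and 181, and Ms4a1 most of the B cell sum, at 339 and 287. The lists of CD11b cDC and pDC markers include Itgam and Bst2, whose products chose the DCs. Markers of macrophages and monocytes summed to 2299 to 2658 (7625 to 8503 in CD11b cDCs).

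Several properties of the arrays moved with the populations. The DC arrays shared a chip lot that no lymphocyte array had and were scanned on other days, so in the comparisons with lymphocytes the scan period and the population cannot be told apart. The 3'/5' signal ratio of GAPDH, a sign of RNA integrity and of the cRNA amplification, was 3.46 and 3.49 in CD8α cDCs, 11.2 and 23.9 in NK cells and 3.46 to 6.30 elsewhere. In all, 3 arrays went against the sex in their labels: both CD8 T arrays, labelled female, had Xist at or below 31.5 and Y-linked genes up to 690 and 968, and B replicate 2, labelled male, had Xist at 4272 and Y-linked genes at 26.4 at most. The DC arrays had Xist at 1539 to 4503 and Y-linked genes at 11.4 at most. Lymphocyte arrays other than B replicate 2 had Xist at 31.5 at most and Y-linked genes at 346 to 968. Sex read from these genes thus separated the DC arrays from all lymphocyte arrays but B replicate 2. The part of these properties in the results was not tested beyond leaving arrays out, as given below. Signals under 20 made up 49.1 to 58.3% of an array and were set to 20, so a fold against a population with signals under 20 is a lower bound.

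Of 9391 genes tested, 275 (2.93%) were highest in CD8α cDCs and 66 (0.703%) were lowest. A gene was called highest when the CD8α cDC mean exceeded the highest mean of the other 5 populations by at least 0.4 on the log2 scale and limma's one-sided test held against each of the 5, with the largest p adjusted over all genes under 0.05, and the rule for lowest was its mirror image. The same rule gave 340 genes highest (3.62%) and 50 lowest (0.532%) in pDCs, 200 (2.13%) and 6 (0.0639%) in CD11b cDCs. It gave 367 (3.91%) and 78 (0.831%) for NK cells, 134 (1.43%) and 96 (1.02%) in B lymphocytes, and 235 (2.50%) and 104 (1.11%) in CD8 T lymphocytes. The count of genes highest in CD8α cDCs was therefore in the range of the other populations. Both CD8α cDC arrays lay above all 11 others in each of the 275 genes and below them in each of the 66, where 7.62 and 5.04% of all genes had such arrays together with the gap of 0.4. Among the 275, 165 reached the detection filter in another population too. The other 110 passed it through CD8α cDCs alone, as 168 of all genes tested did, so the filter itself favoured a higher level there. Where a called gene had several probe sets that passed the filter, 72 of 83 genes were highest and 34 of 41 were lowest in every probe set. Without the CD8 T arrays and B replicate 2 the counts were 258 and 48, and without the NK arrays 304 and 62, both alternatives added after seeing the data. The floor and single arrays weighed on these counts. Without the floor 60 genes were highest, and leaving out 1 array gave 14 genes lowest without CD8α cDC replicate 1, 29 without CD8α cDC replicate 2, 19 and 21 without CD11b cDC replicate 1 or 2, 34 and 35 without pDC replicate 1 or 2, 43 without NK replicate 2, 40 and 41 without CD8 T replicate 1 or 2 and 108 without B replicate 1.

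**Figure D1:**
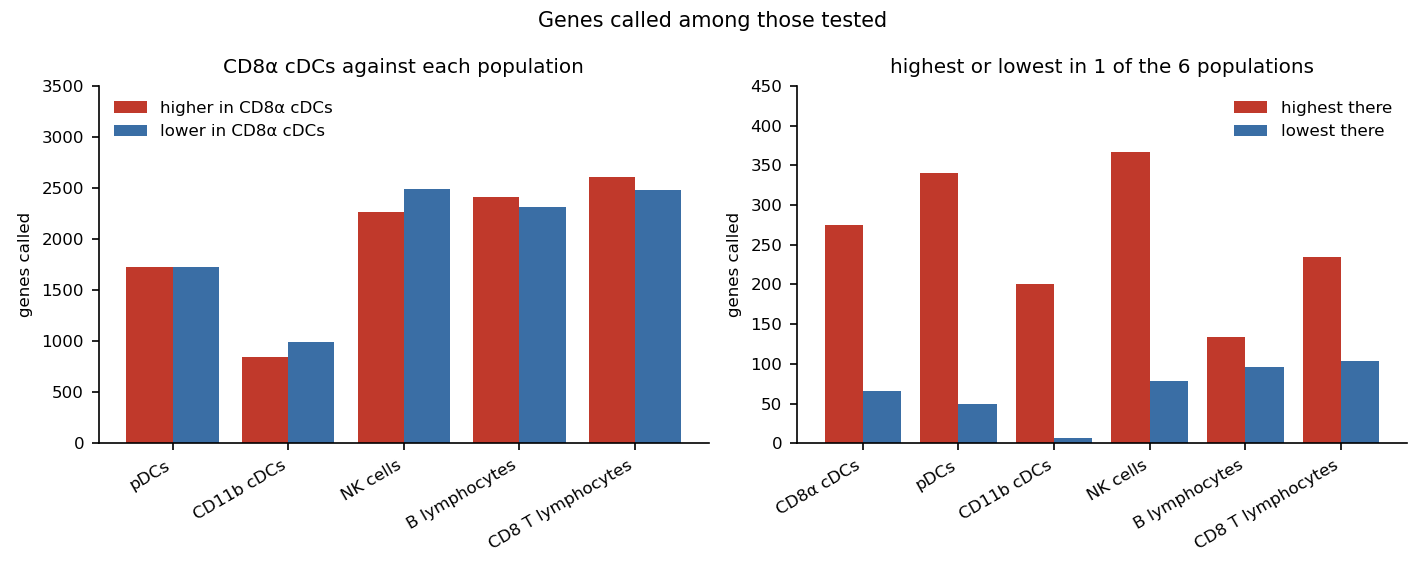
Genes called in CD8α cDCs: the number highest and lowest in each of the 6 populations by the same rule, and the number higher or lower in CD8α cDCs in each pairwise comparison. Bars start at 0. CD8α cDCs had 275 genes highest and 66 lowest, and the comparison with CD11b cDCs had the fewest differences (842 higher, 992 lower).

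**Figure D2:**
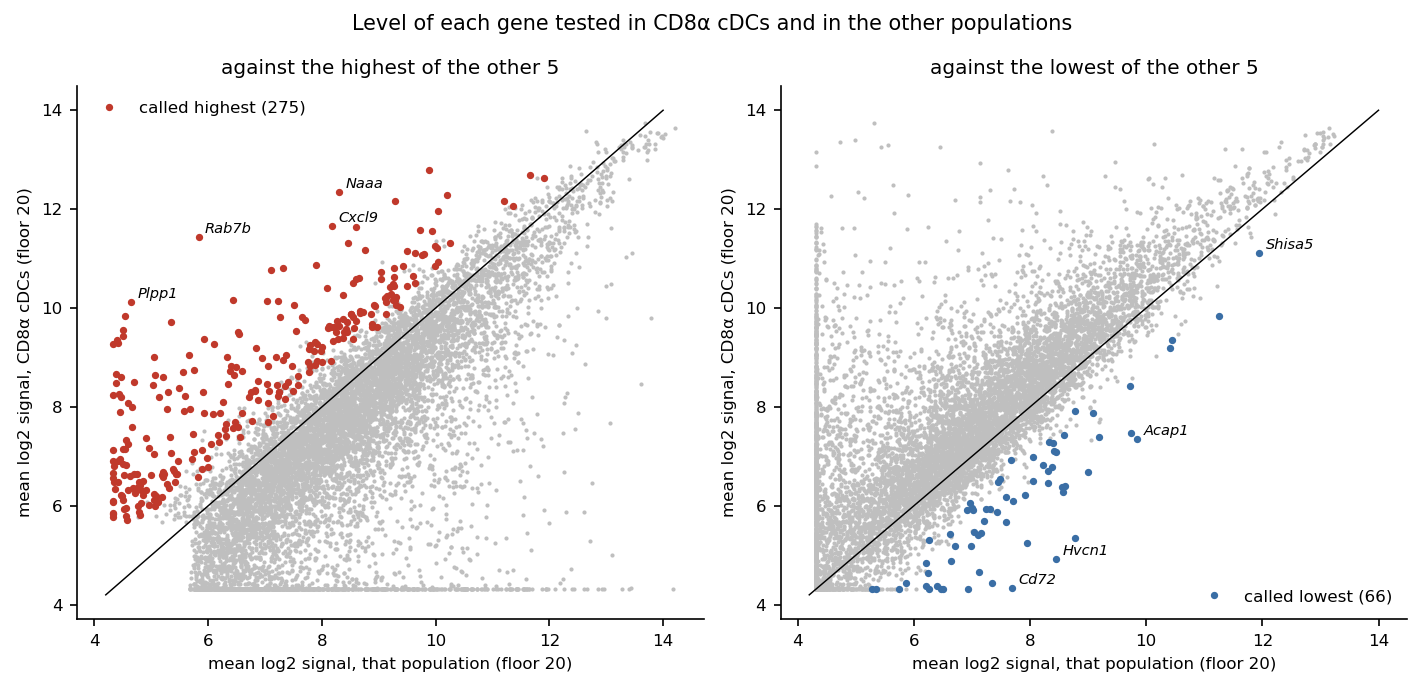
Mean log2 signal (floor 20) of the 9391 genes in CD8α cDCs, on the vertical axis, against the highest (left) and the lowest (right) mean of the other 5 populations, with a line of equality. The 275 genes called highest lie above the line on the left, Rab7b and Plpp1 farthest from it, and the 66 called lowest lie below it on the right, Hvcn1 and Cd72 among the farthest.

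The gap of the 275 genes above the next population had a median of 1.48 (log2). It was at least 1 in 239 genes, at least 2 in 86, at least 3 in 36 and at least 4 in 13. The next population was CD11b cDCs for 135 genes, pDCs for 54, NK cells for 40, B lymphocytes for 27 and CD8 T lymphocytes for 19. Among the 1759 genes whose mean was highest in CD8α cDCs by any amount, CD11b cDCs came next for 808. In 11 genes, every array of the other 5 populations read under 20.

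Rab7b, a small GTPase of late endosomes and lysosomes, had the largest gap. It read 2780 and 2725 in CD8α cDCs, 58.8 and 55.6 in CD11b cDCs and at most 28.3 elsewhere, a 48.1-fold difference from the next population (limma, adjusted p = 7.55e-09). Plpp1 came next with a 44.0-fold difference, and then Gcsam, an adaptor named for germinal centre B cells. Gcsam read 956.5 and 881 in CD8α cDCs and at most 25.6 in B lymphocytes and 26.9 elsewhere, a 39.5-fold difference. Fam149a (715 and 798, others at most 25.0) and Xcr1 followed, with differences of 33.2-fold and 31.1-fold. Ptgis, the prostacyclin synthase, read 529 and 728 and no more than 10.1 on any other array, a difference of at least 31.0-fold. P3h2, a collagen prolyl hydroxylase, read 737 and 534 against at most 22.7. Fzd1, a receptor for Wnt ligands, read 707 and 684 against at most 25.8, and Dkk3, a secreted member of the Dickkopf family, read 419 and 393 against at most 21.8. These 4 genes were at or near the floor in every other population.

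Naaa encodes a lysosomal amidase of fatty acid ethanolamides. It read 5187 and 5264, against 321 and 313 in CD11b cDCs, 104 and 160 in pDCs and at most 169 in lymphocytes (16.5-fold, adjusted p = 0.000106). Cd207, langerin, the lectin of Langerhans cells, read 391 and 323 and at most 22.6 elsewhere (17.1-fold). Dbn1 (drebrin) and Sh3pxd2b, which bind actin and build podosomes, read 468 and 322 and 521 and 516, against at most 24.3 and 38.9. Serpinb8, a protease inhibitor, read 321 and 283 against at most 19.9, at least 15.1-fold. Ttc39a completed the set at 850 and 844 against at most 48.9. In each of these 15 genes the lowest CD8α cDC array exceeded the highest of the other 11 arrays, as in all 275 called highest. Such arrays together with the gap of 0.4 were found in 7.62% of all genes. All of the 15 but Rab7b and Naaa reached the detection filter in CD8α cDCs alone, so the filter itself favoured a higher level there.

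**Figure D3:**
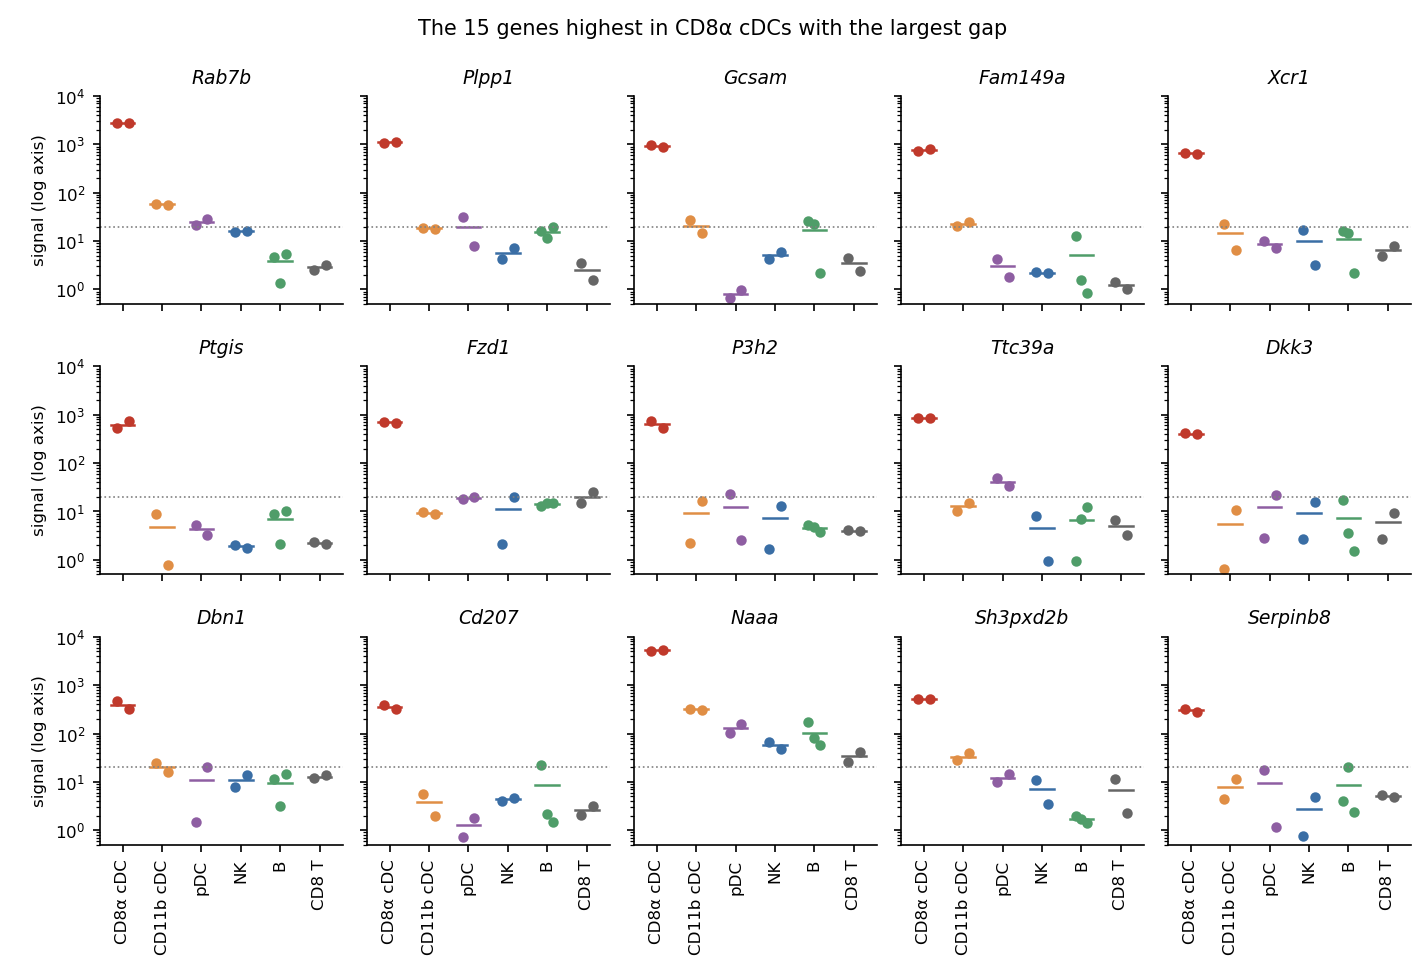
Signal of the 15 genes with the largest gap among those highest in CD8α cDCs, on a log axis. Each point is an array, each bar the arithmetic mean of its population, and the dotted line the floor of 20. The CD8α cDC points lie between 283 (Serpinb8) and 5264 (Naaa), and most others lie near or under the floor.

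The genes lowest in CD8α cDCs were led by Hvcn1, the voltage-gated proton channel that serves the NADPH oxidase. It read 24.4 and 37.9 in CD8α cDCs, 376 and 326 in CD11b cDCs and 467 to 2249 in the 9 other arrays, 11.5-fold below the next lowest population (limma, adjusted p = 0.000274). Ripor2 read 25.3 and 65.0 against at least 438. Cd72, an inhibitory lectin best known from B cells, read 20.2 and 5.80, against 185 and 234 in CD8 T lymphocytes and at least 507 in the other arrays, 10.3-fold lower. For Hvcn1 and Ripor2 the next lowest population was CD11b cDCs. Arhgef18 read 37.0 and 38.9 against at least 177, although CD8α cDCs were lowest in only 1 of its 3 probe sets that passed the filter. Acap1, an Arf6 GTPase-activating protein, read 150 and 178 against at least 850, and Rras2, a Ras relative, read 64.7 and 110 against at least 376.

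The others were of varied function. Tmem71 read 1.58 and 4.21, against 109 and 138 in CD11b cDCs and 1866 to 2277 in NK cells and CD8 T lymphocytes. Tent5a, a poly(A) polymerase, read 14.1 and 23.6 against at least 136, and Slc2a3, the glucose transporter GLUT3, read 62.0 and 96.8 against at least 265. S100a10, the partner of annexin A2, read 86.0 and 122 against at least 445. Ifi47, an interferon-inducible GTPase, read 180 and 174 against at least 806. Pag1, the adaptor that binds the kinase Csk, read 78.7 and 87.6 against at least 309, and Pltp, the phospholipid transfer protein, read 13.2 and 19.6 against 3652 and 4219 in pDCs and at least 68.2 in the rest. Ddit4, an inhibitor of the mTORC1 kinase complex, read 15.5 and 32.3 against at least 104 (adjusted p = 0.0319), and Clec2i, a ligand of NK receptors of the NKR-P1 family, read 11.8 and 4.59 against at least 64.8 (adjusted p = 0.0173). Replicates of other populations differed widely in these last 2 genes: Ddit4 read 930 and 239.9 in CD8 T lymphocytes and Clec2i 128 and 64.8 in CD11b cDCs. With each gene read from its probe set of lowest mean, Ripor2, Arhgef18, Acap1, S100a10, Pag1, Pltp, Ddit4 and Clec2i lost their call. The gap was then 0 for Arhgef18 and -0.24 for Pag1. The gap of the 66 genes had a median of -1.54 (log2), was at least 1 in size in 57, at least 2 in 16 and at least 3 in 3. CD11b cDCs were the next lowest population for 35 of them, pDCs for 14, B lymphocytes for 8, CD8 T lymphocytes for 6 and NK cells for 3. In 7 genes both CD8α cDC arrays read under 20.

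**Figure D4:**
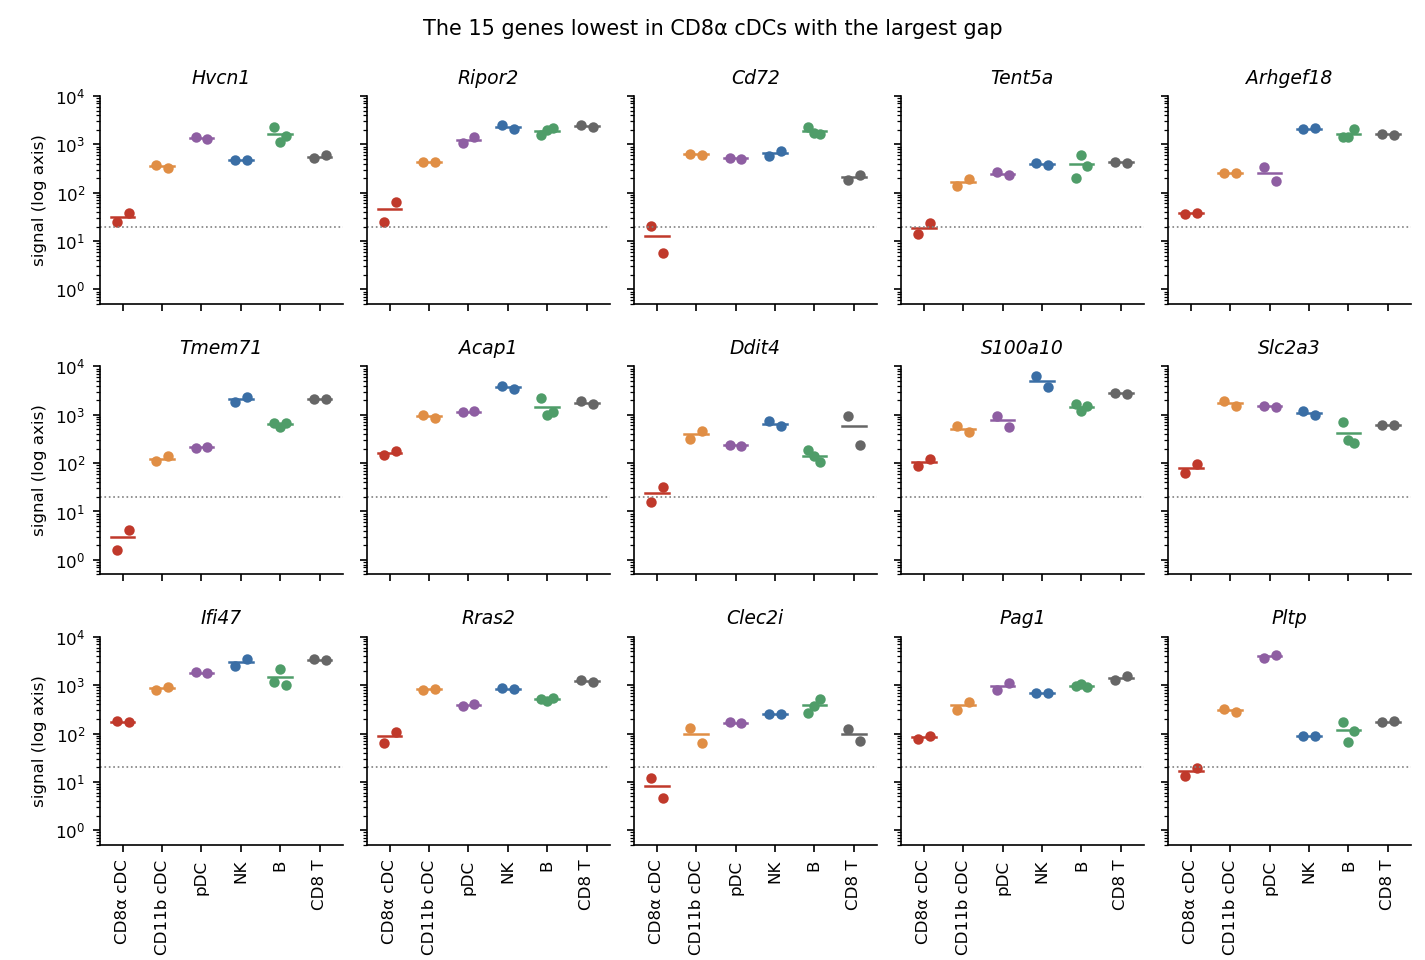
Signal of the 15 genes with the largest gap among those lowest in CD8α cDCs, on a log axis. Each point is an array, each bar the arithmetic mean of its population, and the dotted line the floor of 20. The CD8α cDC points lie below all others in every panel, from 1.58 (Tmem71) to 180 (Ifi47).

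Sequence upstream of the called genes was read from RefSeq windows (mouse GRCm38.p6), using the 250 bases before a transcript's start. Windows were at hand for 220 of the 275 highest genes, 49 of the 66 lowest and 7683 of all genes tested. The AP-1 motif TGANTCA, bound by factors of the Fos, Jun and Batf families, stood on either strand in 15 of 274 windows of the highest genes (5.47%), in 2 of 72 of the lowest (2.78%), in 4.17% of the windows of all genes tested and in 6.75% of all RefSeq windows. An interferon response element, written as a pair of GAAA runs parted by any 2 bases, stood in 5 windows of the highest genes (1.82%), in 7 windows of the lowest (9.72%), which belong to Gbp3, Gbp7, Glul, Klhl22 and Selenop, in 2.76% of the windows of all genes tested and in 2.98% of all RefSeq windows. A match is a description of the letters and no evidence of binding. Shown are the windows of Cd207, a gene of the 15 largest gaps with an AP-1 match close to its start, on the minus strand of chr6:83677858-83678107, and of Gbp3 (chr3:142559794-142560043, plus strand) and Gbp7 (chr3:142530086-142530335, plus strand), both among the lowest genes. They are written 5′ to 3′ along the gene, with the AP-1 motif in capitals in Cd207 and the interferon response element, read from the opposite strand, in capitals in the others.
Cd207: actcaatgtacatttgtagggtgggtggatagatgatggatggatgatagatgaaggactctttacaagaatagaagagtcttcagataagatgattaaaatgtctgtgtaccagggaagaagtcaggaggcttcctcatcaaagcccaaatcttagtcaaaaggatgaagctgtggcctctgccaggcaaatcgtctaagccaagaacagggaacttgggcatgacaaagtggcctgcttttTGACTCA
Gbp3: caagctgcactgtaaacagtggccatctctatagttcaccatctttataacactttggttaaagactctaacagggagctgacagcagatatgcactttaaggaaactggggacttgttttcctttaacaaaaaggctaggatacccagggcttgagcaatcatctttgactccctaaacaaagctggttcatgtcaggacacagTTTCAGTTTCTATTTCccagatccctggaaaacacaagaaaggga
Gbp7: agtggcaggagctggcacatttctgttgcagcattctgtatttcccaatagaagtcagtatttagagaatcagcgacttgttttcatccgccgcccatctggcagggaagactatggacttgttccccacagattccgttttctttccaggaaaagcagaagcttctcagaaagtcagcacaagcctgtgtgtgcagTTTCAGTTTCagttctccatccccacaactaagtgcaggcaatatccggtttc
Gbp3 and Gbp7, guanylate-binding proteins induced by interferon and named here for this motif after their values were seen, start close to each other on the chromosome. Gbp3 read 48.4 and 37.8 in CD8α cDCs and at least 114 on every other array (adjusted p = 0.00999), and Gbp7 read 18.6 and 9.34 against at least 39.4, with 678 to 818 in NK cells and CD8 T lymphocytes (adjusted p = 0.0274).

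Of 16 genes written down as CD8α cDC markers and tested, 8 were called highest, where 2.93% of all genes were. They were Xcr1, Plpp1, Tlr3, Gcsam, Naaa, Cadm1, Cd36 and Septin3. Of these, Tlr3, Gcsam, Naaa, Cadm1 and Septin3 are also in a list that the study chose on these samples, as are the markers Clnk and Btla. The count and the medians of this marker list are therefore not independent evidence. Cadm1, an adhesion molecule, read 1811 and 1786 in CD8α cDCs, 155 and 164 in pDCs and at most 41.1 elsewhere. Cd36, a scavenger receptor that binds dying cells, read 1217 and 1086, against 332 in B replicate 1 and at most 46.2 on the other arrays. Septin3 read 342 and 258 against at most 52.5. The other 8 were at a similar or higher level in another population. CD8 T lymphocytes read 2400 and 2629 in Cd8a, against 3087 and 2916 in CD8α cDCs. For the integrin Itgae, CD103, they read 1095 and 1028 against 869 and 903 (a log2 difference of -0.26 ± 0.22, SE, limma), and for Ly75, DEC-205, 227 and 257 against 174 and 218 (-0.31 ± 0.36). B lymphocytes differed from CD8α cDCs by 0.08 ± 0.22 in Btla, an inhibitory receptor, and by -0.04 ± 0.46 in Cd24a. Clnk, an adaptor of immune receptors, was higher in NK cells (569 and 366) than in CD8α cDCs (160 and 237), with a log2 difference of -1.23 ± 0.23. The median difference of the 16 markers, which include Cd8a and 5 genes that reached the filter in CD8α cDCs alone, was 4.46 against pDCs and 3.89 against CD11b cDCs, where all genes tested had a median of 0.

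Of 21 transcription factors of DC lineages tested, 1 was called highest, Mycl (4.76%, against 2.93% of all genes), and none lowest. Mycl, a Myc relative of DCs, read 455 and 453, against 213 and 232 in pDCs, 73.6 and 90.5 in CD11b cDCs and at most 3.13 in lymphocytes. Irf8 was as high in pDCs as in CD8α cDCs (10510 and 9727 against 9575 and 9918, a difference of -0.05 ± 0.14, SE) and higher than in CD11b cDCs, which read 708 and 747 (3.75 ± 0.14). Batf3 read 1546 and 1579 in CD8α cDCs and 1115 and 1277 in CD11b cDCs, a difference of 0.39 ± 0.24 (adjusted p = 0.316), and at most 62.7 in the other populations. Id2 was higher than in CD11b cDCs (3729 and 4046 against 1586 and 1353, 1.41 ± 0.34) but not separable from NK cells (2781 and 2206). Irf4, a factor of CD11b cDCs and B cells, read 9.24 and 33.1, against 513 and 558 in CD11b cDCs, and Spib, a factor of pDCs and B cells, read 24.8 and 48.1 against 3310 and 3207 in pDCs. Zeb2 read 6.03 and 17.6 and was lower than in each of the 5 populations (adjusted p from 2.44e-07 to 0.0268) without passing the joint test (adjusted p = 0.338).

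Among 15 Toll-like receptors and partners tested, Tlr3 alone was called highest, where 2.93% of all genes were. Tlr12, which senses profilin of parasites, was shared with pDCs (346 and 302 against 311 and 204), and Tlr13, a sensor of bacterial ribosomal RNA, was shared with CD11b cDCs (305 and 372 against 367 and 449). Tlr7, the sensor of single-stranded RNA, read 6.73 and 1.38 in CD8α cDCs, 693 and 683 in pDCs and 240 and 330 in CD11b cDCs, so that the DC subsets did not overlap. Tlr1, which pairs with Tlr2 on bacterial lipopeptides, read 27.1 and 51.6 against 966 and 946 in CD11b cDCs.

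Of 16 receptors for uptake and dead cells, 3 were highest, where 2.93% of all genes were: Cd36, Cd207 and Havcr2. Cd36 and Cd207 reached the detection filter in CD8α cDCs alone, so the filter itself favoured a higher level there. Havcr2 (TIM-3), which binds phosphatidylserine, read 2700 and 2405, with CD11b cDCs next at 1230 and 1212 and pDCs at 47.1 and 59.6. Lectins of CD11b cDCs and pDCs were low. Clec4a2 read 25.6 and 50.9 against 1222 and 1253 in CD11b cDCs, Clec7a, dectin-1, read 90.4 and 118 against 1281 and 1738, and Clec10a read 19.8 and 2.78 against 2848 and 2250 in pDCs. Relative to CD11b cDCs, 5 of the 16 were higher and 6 lower, where 8.97 and 10.6% of all genes were.

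Chemokine genes had 4 of 20 members called highest (2.93% of all genes were): Xcr1, which reached the filter in CD8α cDCs alone, Cxcl9, Cxcl16 and Ccl22. Cxcl9, a ligand that draws Cxcr3-bearing T and NK cells, read 2965 and 3500, against 254 and 332 in CD11b cDCs and at most 30.6 elsewhere (11.1-fold). Cxcl16, a membrane-bound ligand of Cxcr6, read 803 and 916 against 254 and 371 in CD11b cDCs. Ccl22, a ligand of Ccr4, read 176 and 208, against 58.2 and 128 in CD11b cDCs (adjusted p = 0.0422), a call lost in 18 of 28 alternative settings. Ccl3 and Ccl5 were lower than in CD11b cDCs and NK cells. Ccl3 read 182 and 191 against 1442 and 1202 in CD11b cDCs and 2502 and 3753 in NK cells, and Ccl5 read 328 and 376 against 2764 and 2775 there and 12580 and 12440 in NK cells. Of 20 cytokine and costimulation genes, 2 were highest, where 2.93% of all genes were. Il12b, the p40 subunit of interleukin 12, was low in all but read 112 and 87.6 in CD8α cDCs, against 34.4 and 29.7 in CD11b cDCs, and it reached the filter in CD8α cDCs alone. Il15 read 169 and 146 against 56.9 and 94.4 in NK cells. Cd86, a costimulatory ligand of CD28, read 1955 and 1963, above every other array, but did not pass the joint test (adjusted p = 0.0689). The B arrays ranged from 210 to 1024 in this gene. Of 24 receptors for growth factors and cytokines, none was highest and 1 was lowest, where 2.93 and 0.703% of all genes were. The gene called lowest was Il7r, the interleukin 7 receptor. It read 17.7 and 23.8, against 50.1 to 67.9 in B lymphocytes and 4820 and 4475 in CD8 T lymphocytes. This call was lost in 5 of 28 settings, with either other normalization, a floor of 50, the lowest-mean probe set or CD8α cDC replicate 1 left out. Flt3, the receptor that sustains DCs, was at 1724 and 1702 and not separable from CD11b cDCs (1057 and 1169) or pDCs (996 and 1007) after adjustment.

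Genes of MHC class I presentation included 2 of 27 called highest (2.93% of all genes were), Tap2 and Pdia3, and had a mean highest in CD8α cDCs in 10 (37.0%, against 18.7% of all genes). Tap2, a subunit of the peptide transporter, read 1181 and 1196 with CD11b cDCs next at 559 and 707 (adjusted p = 0.0351). Pdia3, ERp57 of the peptide-loading complex, read 2220 and 2709 with pDCs next at 1205 and 857 (adjusted p = 0.0326). The calls of Tap2 and Pdia3 were lost in 12 and 14 of 28 settings, quantile and invariant-rank normalization and the replicate block among them. Psmb9, a subunit of the immunoproteasome, read 5942 and 6668 with CD11b cDCs next at 3322 and 3776, and missed the joint test (adjusted p = 0.0741). The class I heavy chain H2-K1 was not above the others: it read 8020 and 8371, against 12670 and 14170 in NK cells. Cybb, the catalytic subunit of the phagosomal NADPH oxidase, read 42.5 and 60.2, against 1419 and 1845 in CD11b cDCs and 3455 and 4761 in pDCs. No gene of 20 in MHC class II presentation was highest or lowest. Against CD11b cDCs the class II genes had a median difference of -0.35 (log2). Among them 4 were lower and none higher, where 10.6 and 8.97% of all genes were. H2-Aa read 12940 and 14340 in CD8α cDCs, 10700 and 12030 in CD11b cDCs and 11180 to 15160 in B lymphocytes.

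Cell cycle genes were higher in CD8α cDCs than in pDCs and lymphocytes. Of 23 tested, 21 had their highest mean in CD8α cDCs (91.3%, against 18.7% of all genes), although 1, Cdc20, passed the joint test. Relative to pDCs 23 were higher, with a median difference of 2.63 (log2), relative to NK cells 20, to B lymphocytes 21 and to CD8 T lymphocytes 22, with medians of 1.76, 2.77 and 2.74 (18.3, 24.1, 25.7 and 27.8% of all genes were higher in the 4 comparisons). Against CD11b cDCs the median was 0.24 and 2 of 23 were higher, Cdc20 and Ube2c, a share near the 8.97% of all genes. Cdc20, an activator of the anaphase-promoting complex, read 822 and 990 in CD8α cDCs, 367 and 380 in CD11b cDCs and 75.8 to 190 elsewhere. Mki67, the Ki-67 antigen of dividing cells, read 1927 and 1767, against 1391 and 1438 in CD11b cDCs and 104 to 545 elsewhere. The arrays of CD8α cDCs lay above those of CD11b cDCs in both genes, and the difference in Mki67 did not pass (adjusted p = 0.545).

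Single genes of actin and vesicle traffic were also called highest. Fgd6 and Tiam1, exchange factors for Cdc42 and Rac, read 260 and 222 and 238 and 225, against at most 77.6 and 77.8 elsewhere. Rab32, a GTPase of lysosome-related organelles, read 1474 and 1614 with CD11b cDCs next at 402 and 371, and Rab11a, of recycling endosomes, read 2142 and 2237 with CD11b cDCs next at 858 and 917. Lima1 and Dbn1 bind actin, and Lima1 read 370 and 329 against at most 33.4. Rac2, the haematopoietic Rac, ran the other way at 711 and 706 against at least 1057 in every other array, without passing against CD11b cDCs (-1.08). A list that the study drew up as shared with a human DC subset had 22 of 36 members highest here (2.93% of all genes were). Since it was chosen on these samples, that count is not independent evidence.

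Interferon-stimulated genes had no member of 23 called highest or lowest, but 10 had their lowest mean in CD8α cDCs (43.5%, against 19.7% of all genes). The difference was widest from CD11b cDCs: 12 of 23 were lower and none higher, with a median of -1.59 (log2), where 10.6% of all genes were lower. Against pDCs 1 was higher and 5 lower (18.3 and 18.4% of all genes were). Against CD8 T lymphocytes 5 were higher and 5 lower (27.8 and 26.4% of all genes). Against NK cells 8 were higher and 2 lower (24.1 and 26.5% of all genes), with a median of 0.07. Against B lymphocytes 7 were higher and 4 lower (25.7 and 24.7% of all genes), with a median of -0.36. Oas2, a sensor of double-stranded RNA, read 14.2 and 16.4 against 390 and 380 in CD11b cDCs, and Ifit3 read 22.3 and 27.7 against 574 and 670. Mx1 was the exception with a highest mean, at 864 and 651 against 408 and 322 in CD11b cDCs, which did not pass (1.05 ± 0.86, SE). B replicate 2 stood apart in these genes: Ifit3 read 1886 there and 212 and 128 on the other B arrays.

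Of the macrophage and monocyte markers, 2 of 10 tested were highest in CD8α cDCs, where 2.93% of all genes were. Hmox1, the haem oxygenase, reached the filter in CD8α cDCs alone and read 123 and 101 against at most 20.4, and Vcam1, an adhesion molecule, read 170 and 171, with CD11b cDCs next at 75.9 and 84.2. The sum over all 13 markers measured was 2299 to 2658 in CD8α cDCs, below the 7625 to 8503 of CD11b cDCs and the 3340 to 3663 of pDCs, and 5 markers were under 20 on both CD8α cDC arrays. None of 3 erythroid or 6 granulocyte markers reached the filter, and their sums in CD8α cDCs were 18.9 to 61.1 and 87.3 to 114. Of 16 CD11b cDC markers, which include the sorting antigen Itgam, 15 were lower in CD8α cDCs than in CD11b cDCs (10.6% of all genes were). In bulk samples, fewer cells of a type and less RNA per cell cannot be told apart.

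**Figure D5:**
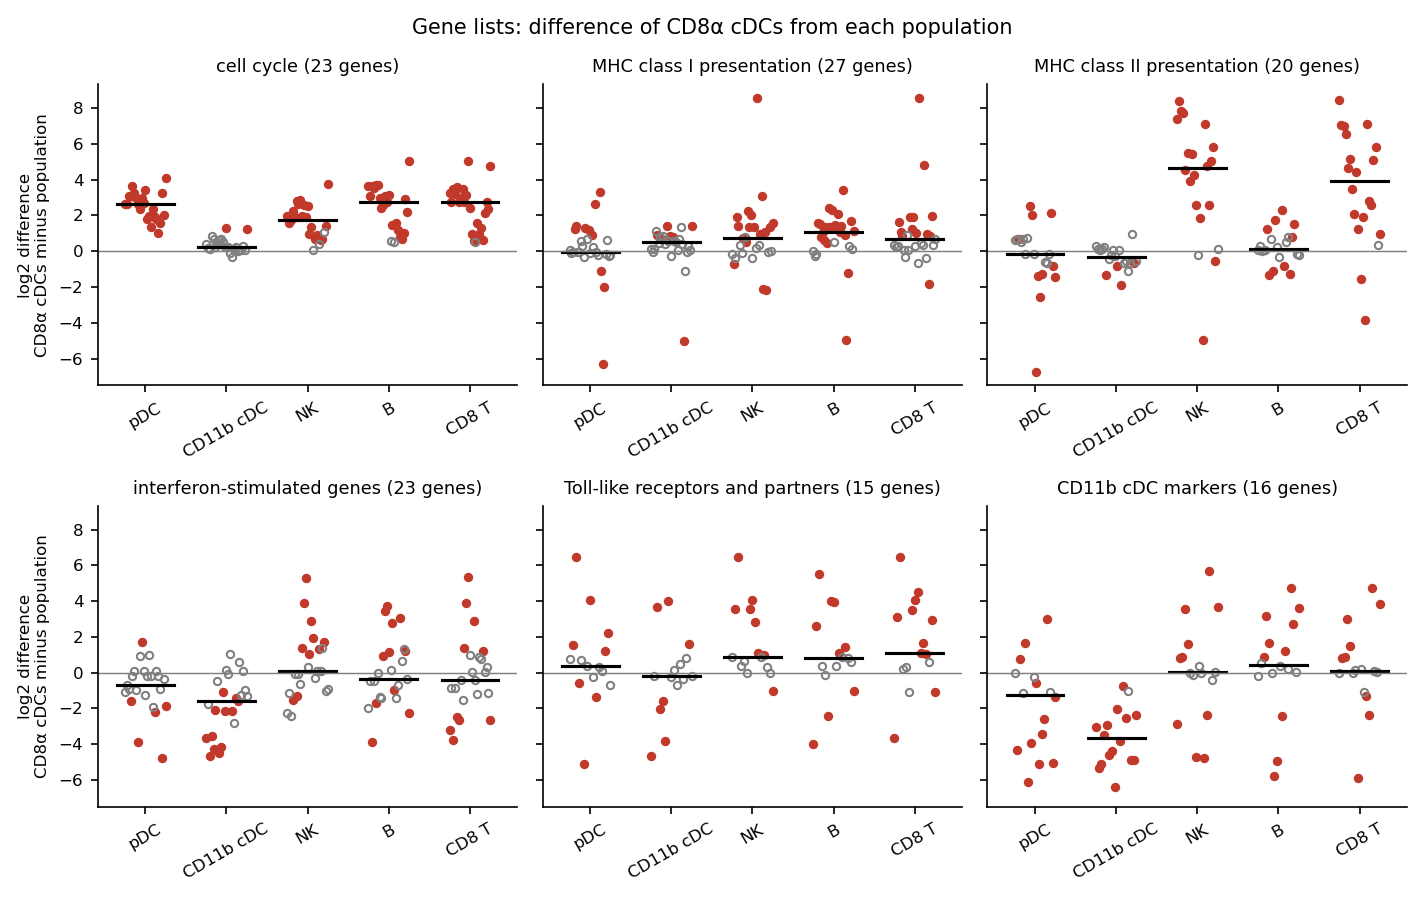
Difference of CD8α cDCs from each other population (log2, floor 20) for the members of 6 gene lists. Each point is a gene, filled where it passed the test in that comparison, and the black line is the median of the list. Of the 23 cell cycle genes, 21 lie above 0 against every population, and their median is smallest against CD11b cDCs, at 0.24. The interferon-stimulated genes have a median of -1.59 against CD11b cDCs.

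Taken population by population, all with the same pair of CD8α cDC arrays, the fewest genes separated CD8α from CD11b cDCs: 842 (8.97%) were higher and 992 (10.6%) lower, 567 and 710 of them at least 2-fold. Beside Cd8a, which chose the cells, the genes with the largest differences were Pdia5, Cadm1 and Plpp1 among those higher and Dtx1, Clec4a3, Rtp4 and Sirpb1a among those lower. Pdia5, a disulfide isomerase of the endoplasmic reticulum, read 2360 and 2714 against 60.6 and 44.2, with pDCs at 444 and 280, and was highest in CD8α cDCs. Dtx1, a regulator of Notch signalling, read 17.3 and 34.3 against 2311 and 2133. Rtp4, induced by interferon, read at most 13.1 against 977 and 1001. CD11b replicate 1 was scanned on another day than the 5 other DC arrays, and no other array shared that day. Like leaving the array out, a term for the day therefore removes it from the comparison and cannot separate the day from the array. With a term for the day, the comparison gave 469 genes higher and 625 lower, fewer by more than 1.5 times, and 480 and 653 without that array. In all, 1172 genes differed without CD11b cDC replicate 2 and 1119 without CD8α cDC replicate 2.

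Against pDCs, 1723 genes (18.3%) were higher in CD8α cDCs and 1724 (18.4%) lower, 1135 and 1202 at least 2-fold. Cxcl9, Rab7b, Treml4 and Cd81 led those higher. Treml4, a receptor that binds dead cells, read 2911 and 3247 against 29.9 and 9.22, with CD11b cDCs at 800 and 898, and was highest in CD8α cDCs. Cd81, a tetraspanin, read 2156 and 2399 against 20.4 and 23.4, with B replicate 1 at 1491. D13Ertd608e, Klk1, Ly6d and Pltp led those lower, with Klk1, a kallikrein, at 5.63 and 6.05 against 6930 and 5688.

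The lymphocytes differed in more genes. Against NK cells, 2264 (24.1%) were higher and 2491 (26.5%) lower. Mpeg1, the perforin-2 of phagocytes, Plbd1, Wdfy4, a gene needed for cross-presentation, and H2-Ab1 led those higher, and the granzyme Gzma, Ms4a4b, Gimap4 and Klra8 led those lower. Wdfy4 read 7380 and 7652 in CD8α cDCs, with CD11b cDCs next at 5441 and 5130, a difference of 0.51 ± 0.17 (SE) that did not pass (adjusted p = 0.0625). Against B lymphocytes, 2415 (25.7%) were higher, led by Alox5ap, Tgfbi, Cxcl9 and Treml4, and 2319 (24.7%) lower, led by Cd79b, Fcmr, Gimap4 and Igkv8-30. Against CD8 T lymphocytes, 2607 (27.8%) were higher, led by Mpeg1, Plbd1, Wdfy4 and H2-Aa, and 2480 (26.4%) lower, led by Ms4a4b, Gimap4, Trbv1 and Il7r.

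At the edge of the rule, the called genes with the smallest gap above the next population were Rab11fip4, Dennd1b and Cnih4, at 0.65, 0.65 and 0.64 (log2), so the test and not the gap of 0.4 set the limit. Cnih4 read 956 and 1131 with CD11b cDCs next at 610 and 725. Just under 0.4 lay Chtf18, Cops2 and Usp12, Usp12 with 1134 and 1037 against 732 and 926 in CD11b cDCs. Among the lowest genes the smallest gaps were -0.86 for Rnf2, -0.83 for Shisa5 and -0.74 for Epc2. Shisa5 read 1964 and 2510 against at least 3740. A630001G21Rik, Cluap1 and Nck1 lay just inside -0.4 and were not called. A further 474 genes passed the gap above the other populations and 487 the gap below them without passing the test.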

How the data were processed

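Gene expression was read on 13 Affymetrix Mouse 430 2.0 arrays of 6 spleen populations, grouped by sample title. The authors amplified the RNA in successive cRNA rounds and computed the deposited intensity values with MAS5, scaled to a target of 100 per array, with no floor. Chip lot and scan day came from the instrument records deposited beside these values. Arrays give no read depth, so the number of arrays limits the precision, and p-values measure only the spread between these arrays, which may be technical in part.

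Of 45101 probe sets, 34958 had 1 gene, 932 several and 9211 none in GEO's platform annotation; 34754 of the first matched RefSeq by gene ID. Probe sets that reached a signal of 50 on every array of some population were kept (18207, of which 15650 with 1 gene), and each of 9391 genes was read from the probe set with the highest mean. Signals were floored at 20 and log2 transformed. One limma model (3.58.1, R 4.3.3) gave 6 population means with 7 residual degrees of freedom. Pairwise tests were two-sided. Highest and lowest genes were called as described above, with Benjamini-Hochberg adjustment over all genes and a threshold of 0.05. The scripts were tested on simulated data. Gene lists are described by counts and medians without a set test.

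Named genes were the 15 with the largest gap each way, the 3 on each side of the threshold, the 4 with the largest difference each way in a pairwise comparison, the CD8α cDC markers and members of the fixed lists. The population, the lists and the rules were chosen with earlier results of these data known. Genes without a probe set annotated to that gene alone, such as Clec9a, were not analysed here, and the result of a further list is not reported here. The deviations of same-numbered replicates correlated at -0.198 to 0.184 over all pairs of populations. For CD8α cDCs the correlation was 0.181 with CD11b cDCs, -0.157 with pDCs and -0.009 with NK cells. Replicate numbers were not used for pairing in the main model. Alternatives concerned normalization, floor, filter, variance model, probe set, replicate and scan day terms, the B lymphocyte arrays used, the gap and each array left out.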

Additional observations from a re-analysis of the deposited data

How the results depend on the processing

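The counts were recomputed under up to 33 alternative settings and single genes under up to 28. Of 59 named genes called highest or lowest, 14 kept their call under every setting run for them: Cd207, Fzd1, Gcsam, Naaa, P3h2, Plpp1, Ptgis, Rab7b, Sh3pxd2b and Xcr1 among the highest, and Cd72, Hvcn1, Rras2 and Tmem71 among the lowest. The 275 genes highest became 60, all among the 275, without a floor, and 716 when arrays that do not overlap replaced the test. Without the floor, Tlr3, Cadm1, Cxcl9, Havcr2, Mycl and Il12b, among others, were no longer called. The 66 genes lowest became 40 with quantile normalization, 24 without the filter, 22 with the lowest-mean probe set of each gene, 108 with the follicular B arrays alone and 473 when arrays that do not overlap replaced the test. Leaving out 1 array gave 187 to 339 genes highest and 14 to 108 genes lowest, 14 without CD8α cDC replicate 1, 29 without CD8α cDC replicate 2, 19 and 21 without CD11b cDC replicate 1 or 2, 34 and 35 without pDC replicate 1 or 2, 43 without NK replicate 2, 40 and 41 without CD8 T replicate 1 or 2 and 108 without B replicate 1. The genes that differed from CD11b cDCs, 1834 in all, became 1094 with a fixed term for the scan day and 1119 to 2413 with 1 array left out, 1119 without CD8α cDC replicate 2 and 1133 and 1172 without CD11b cDC replicate 1 or 2. The ranges were 2445 to 4076 against pDCs, 3627 to 5372 against NK cells, 3423 to 5368 against B lymphocytes and 4023 to 5640 against CD8 T lymphocytes. The fixed term for the scan day removed CD11b cDC replicate 1 from its comparison, since no other array was scanned on that day. With the replicate number as a block, 263 genes were highest and 52 lowest, and the pairwise counts were 3338 (pDCs), 1704 (CD11b cDCs), 4603 (NK), 4207 (B) and 4995 (CD8 T). Dennd1b, called highest, had a gap of -0.515 (log2) with its lowest-mean probe set. Ccl22, Pdia3, Tap2, Cd81 and Ddit4 lost their call in 12 or more settings. Quantile and invariant-rank normalization moved the median difference of all genes from CD8 T lymphocytes to 0.10 and 0.11 (log2). The cause was not tested in these cases. The many signals near background, and 2 arrays a population, limit what can be said of low genes.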

Other observations

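The genes in this section were grouped after their values were seen, so the groupings are descriptions. Some genes of lysosomal enzymes and transport were among those highest in CD8α cDCs, whereas others were not. Ppt1, the palmitoyl-protein thioesterase, read 7268 and 7007, against 762 and 1182 in CD11b cDCs and at most 616 elsewhere. Gusb, the β-glucuronidase, read 4519 and 4690, with pDCs next at 677 and 572. Fuca1, a fucosidase, read 3995 and 3974 against at most 1134. Galc, which degrades galactosylceramide, read 247 on both arrays against at most 53.7. Slc11a1 (NRAMP1), a metal transporter of the phagosome membrane, read 1140 and 1118, against 124 and 139 in CD11b cDCs and at most 34.6 elsewhere. These 5 genes were taken from the 275 called highest, in all of which both CD8α cDC arrays exceeded every other array. Such arrays together with the gap of 0.4 were found in 7.62% of all genes. The lysosomal protease Ctsd went the other way, at 94.2 and 87.1 against at least 120 elsewhere and 2714 and 3026 in NK cells. It was not called lowest (joint test, adjusted p = 0.253). Ctsl, also not called, read 63.8 and 53.4 against 6581 and 5905 in pDCs.

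Rab GTPases other than Rab7b, Rab32 and Rab11a were called as well: Rab39 read 98.8 and 112 against at most 54.3, and Rab13 read 60.6 and 63.6 against at most 27.9. Genes of prostanoid synthesis and sensing joined Ptgis. Tbxas1, the thromboxane synthase, read 273 and 224 against at most 49.9, and Ptger2, a prostaglandin E2 receptor, read 167 and 209, with CD8 T lymphocytes next at 87.9 and 69.5. Met, the receptor of hepatocyte growth factor, read 430 and 404 against at most 55.1. Among the genes lowest, the cyclin Ccnd2 read 40.8 and 46.6 against at least 124, and the transcription factor Foxp1 read 89.3 and 91.7 against at least 235.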
